A study of Homo sapiens with 6 samples.

Results

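The 10 enzymes that make serine and carry its carbon through the folate pathways were followed in DU145 cells, an established human prostate cancer cell line. The list holds PHGDH, PSAT1 and PSPH of serine synthesis, SHMT1 and MTHFD1 of the cytosol, and SHMT2, MTHFD1L, MTHFD2, MTHFD2L and ALDH1L2 of the mitochondria. These 10 genes were chosen by name from the 19727 genes in the table, and all 10 were measured in every library. The choice was made with earlier results of these data known. Lentivirus-circCSPP1, which overexpresses the circular RNA circCSPP1, was set against the control lentivirus-NC in 3 libraries each, called the circCSPP1 and the control libraries below and given in the order of replicates 1, 2 and 3. The labels give the first group the genotype circCSPP1 overexpression and the second the genotype normal. Both groups were stable lines, selected with puromycin after infection, and the vector and the circular RNA cannot be told apart because each group carried its own lentivirus. Sequencing was paired-end on polyadenylated RNA. Nothing states that the 3 libraries of a group came from separate cultures, so the p-values measure only the spread between these samples, which may be technical.

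The first 3 enzymes turn the glycolytic intermediate 3-phosphoglycerate into serine. A serine hydroxymethyltransferase then splits serine into glycine and a folate-bound one-carbon unit. In the mitochondria this unit is oxidised to formate, which leaves for the cytosol and is there used to build purines, thymidylate and methionine. The cytosolic enzymes run the same reactions in parallel, and in proliferating tumour cells the mitochondrial route is known as the main source of formate. PHGDH, PSAT1, SHMT2, MTHFD2 and ALDH1L2 are among the genes known to be induced through ATF4, the transcription factor of the amino acid response.

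For 7 of the 10 genes (PHGDH, PSAT1, SHMT1, MTHFD1, MTHFD1L, MTHFD2 and MTHFD2L) a promoter sequence was available, running from 250 bases before to 50 bases after a RefSeq transcription start site on GRCh38.p14. Each was searched on both strands for 3 motifs, of which the CCAAT box was added after the first sequences had been seen. The composite element TGATGNAA (TTNCATCA on the other strand), of the kind bound by ATF4 with a C/EBP partner, was present in 3.62% of all 35116 promoters of this length, and among the 7 genes in MTHFD1L alone. The cAMP response element TGACGTCA was present in 1.85% of all promoters and in 0 of the 7 genes. The CCAAT box (ATTGG on the other strand) was present in 34.6% of all promoters and in 6 of the 7 genes, MTHFD2L being the exception. These shares count promoter windows, whereas a gene was counted if any of its windows had a match, so the 2 are not like for like. MTHFD1L and MTHFD2L had more windows than the other genes. A match is a description of the letters in the window and not a binding site. The promoters of MTHFD1L, at chr6:150866236-150866535, and of PSAT1, at chr9:78296875-78297174, both on the plus strand, are shown because these genes had the 2 largest log2 fold changes with all 6 libraries. Capitals mark the composite element and the CCAAT boxes.
MTHFD1L: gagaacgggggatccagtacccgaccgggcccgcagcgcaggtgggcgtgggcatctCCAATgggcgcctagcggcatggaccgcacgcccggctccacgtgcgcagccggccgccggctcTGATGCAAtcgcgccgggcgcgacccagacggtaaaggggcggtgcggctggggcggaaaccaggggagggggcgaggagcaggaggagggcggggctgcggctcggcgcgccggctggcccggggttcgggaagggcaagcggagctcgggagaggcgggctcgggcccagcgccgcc
PSAT1: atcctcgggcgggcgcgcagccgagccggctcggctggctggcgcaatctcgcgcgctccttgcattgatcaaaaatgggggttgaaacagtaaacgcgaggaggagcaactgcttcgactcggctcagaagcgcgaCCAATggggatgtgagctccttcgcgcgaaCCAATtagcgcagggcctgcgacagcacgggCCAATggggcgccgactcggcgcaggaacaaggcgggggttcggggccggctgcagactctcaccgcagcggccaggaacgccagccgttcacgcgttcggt

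Counted from 0 at the start site, negative before it, the composite element of MTHFD1L began at -129 of the start shown. It also lay in the windows of 2 of the gene's 3 other start sites, where it began at -90 and 24. In PSAT1 the 3 CCAAT boxes began at -113, -83 and -52. The CCAAT boxes of PHGDH (chr1:119711851-119711879, plus strand), of MTHFD2 (chr2:74198529-74198557, plus strand) and of SHMT1 (chr17:18363610-18363638, minus strand) that began at -71, -74 and -76 are shown with their flanks. The positions varied among the 6 genes: MTHFD2 had a second box at -184 and SHMT1 one at -25, MTHFD1L had its box at -193 of the start shown, and MTHFD1 had boxes at -216 and 35. The start site used for PHGDH lies inside the longer span that GENCODE gives the gene. Of the 6 genes with the box, PHGDH, PSAT1, MTHFD1L and MTHFD2 were higher in the values given below, SHMT1 was lower, and the groups of MTHFD1 overlapped.
PHGDH: gagtatttccgtCCAATcaaaaggagact
MTHFD2: atgcggcagggaCCAATgggtggcggagg
SHMT1: gctgcgccgcagCCAATagcgcgggtgcg

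The values are FPKM (fragments divided by the kilobases of transcript and by the total of fragments in the library), as deposited. The depth, read from the spacing of low values, came to 29000000, 28400000 and 36400000 fragments in the control libraries and to 31900000, 34600000 and 28500000 in the circCSPP1 libraries. At this depth the least abundant of the 10 genes, MTHFD2L, rested on 205 to 406 fragments per library. Its counting error was 4.97% to 6.99%. PSAT1, which had the highest value in any 1 library, rested on 20671 to 51833 fragments and SHMT2 on 26995 to 42330. Lentivirus-circCSPP1 replicate 1 stood apart from the other 2 libraries of its group along the GC content of the transcripts, which touches several of the values below. Of 6 epithelial markers, 5 averaged 1 FPKM or more and KRT5 did not, and their summed level was 2271 to 2361 FPKM in the control libraries and 1047 to 1279 FPKM in the circCSPP1 libraries. KLK3 and KLK2, markers of androgen-driven luminal prostate cells, were listed at 0 in all 6 libraries. Of the markers of other cell types, 1 of 5 fibroblast markers (sums 2.85 to 4.34 and 1.30 to 1.97 FPKM, LUM at 0), 1 of 5 leukocyte markers (2.39 to 2.61 and 0.90 to 2.21 FPKM, CD3E at 0) and 0 of 4 endothelial markers (0.32 to 0.68 and 0.16 to 0.69 FPKM) averaged 1 FPKM or more. The part of the lower epithelial markers in the results was not tested, and in bulk RNA fewer cells of a type and less RNA per cell cannot be told apart.

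The 10 genes together were higher with circCSPP1. They summed to 1276, 1245 and 1188 FPKM in the control libraries, and to 1788, 1897 and 1812 FPKM in the circCSPP1 libraries. Every circCSPP1 library was above every control library, and the mean went from 1236 ± 44.6 to 1832 ± 57.5 FPKM (SD, n = 3), a ratio of 1.48. The sum of the serine synthesis enzymes was 1.76 times as high (558 ± 23.3 against 984 ± 73.7 FPKM, SD, n = 3) and that of the 5 mitochondrial enzymes 1.35 times as high (531 ± 27.99 against 717 ± 33.5 FPKM, SD, n = 3). The cytosolic pair went the other way, with 148 ± 8.03 against 132 ± 5.08 FPKM (SD, n = 3), a ratio of 0.894. Within the pair SHMT1 had means of 57.1 and 44.6 FPKM, while the groups of MTHFD1 overlapped (means 90.6 and 87.5 FPKM).

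Gene by gene, 6 of the 10 enzymes had an adjusted p under 0.05 (limma on log2(FPKM + 1), two-sided, Benjamini-Hochberg adjustment over 12322 tested genes), where 11.4% of all tested genes did. PHGDH, PSAT1, MTHFD1L, MTHFD2 and ALDH1L2 were the 5 higher ones, against 4.69% of all tested genes, and SHMT1 was the 1 lower, against 6.66%. The groups did not overlap in 9 of the 10 genes, against 36.4% of all tested genes. Of these, 8 were higher with circCSPP1, against 16.0% of all tested genes, and SHMT1 was lower, against 20.5%. The median log2 fold change was 0.56 over the 10 genes and -0.03 over all tested genes. Since the 10 genes were chosen with earlier results of these data known, the contrasts with all tested genes are descriptions and not a test. With 3 libraries against 3 an exact permutation test (two-sided) of 1 gene has p = 0.10 as its smallest value, which the 9 genes without overlap reached.

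**Figure D1:**
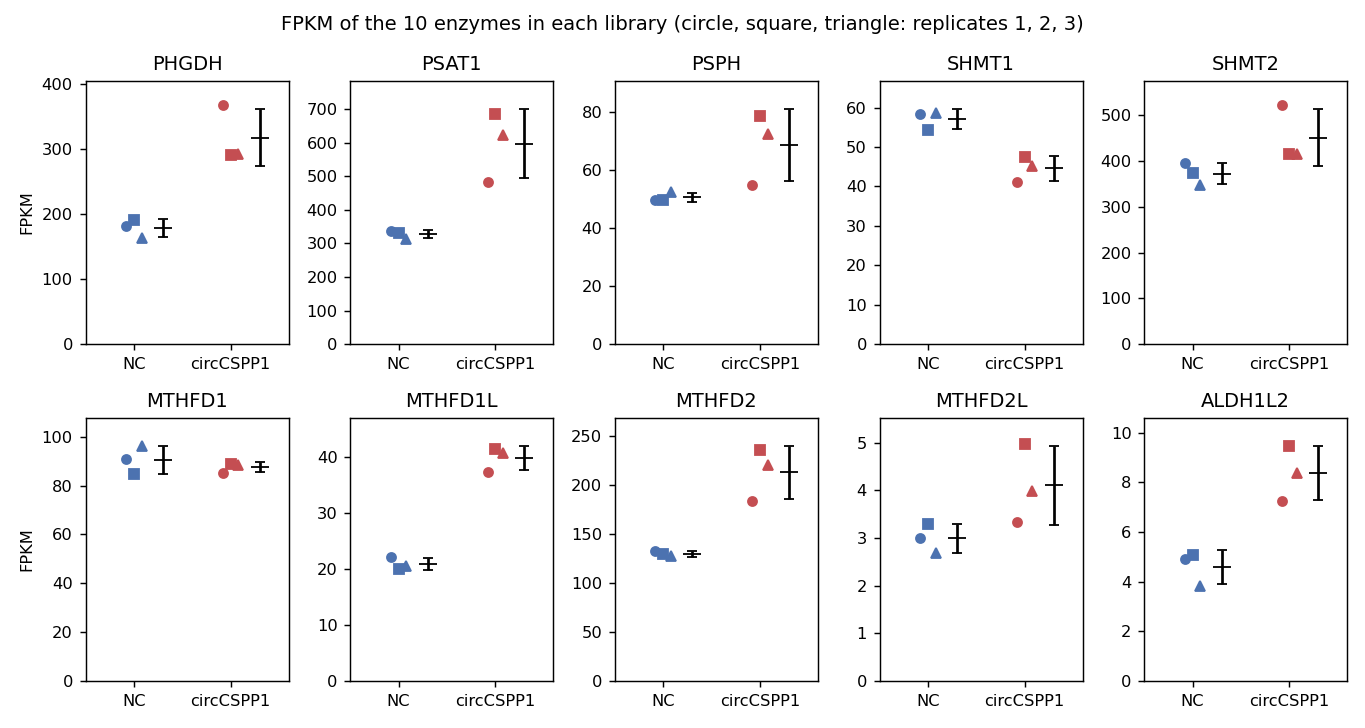
FPKM of each enzyme (vertical axes from 0, a separate scale per gene) in the 3 lentivirus-NC libraries (blue) and the 3 lentivirus-circCSPP1 libraries (red); circles, squares and triangles are replicates 1, 2 and 3, and black bars are the mean ± SD. The groups lie apart in every panel but that of MTHFD1, and the red circle of replicate 1 is above the other red points in PHGDH and SHMT2 and below them in the other 8 panels.

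PHGDH, which commits 3-phosphoglycerate to serine, is on the plus strand of chromosome 1, from 119648411 to 119744226 (GRCh38 and GENCODE release 29, as for all positions here). It measured 182.60, 191.09 and 163.86 FPKM in the control libraries and 368.54, 291.59 and 293.27 FPKM in the circCSPP1 libraries. The groups were far apart, and replicate 1 was the highest of the circCSPP1 libraries. The means were 179 ± 13.9 and 318 ± 44.0 FPKM (SD, n = 3), a 1.77-fold increase. The log2 fold change was 0.82 (SE 0.11, 95% interval 0.55 to 1.08, adjusted p = 0.0068 from limma). It had an adjusted p under 0.05 in all 17 alternatives run for this gene, which changed the scaling, the filter, the pseudocount or the model of the variance, corrected for GC content and length, or left out 1 library.

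PSAT1, the aminotransferase of the second step, was the most abundant of the 10 enzymes with circCSPP1. It lies on chromosome 9 from 78297143 to 78330093 on the plus strand. Its values were 336.29, 332.66 and 314.58 FPKM in the control libraries and 484.40, 684.67 and 622.67 FPKM in the circCSPP1 libraries. Here replicate 1 was the lowest of its group, the reverse of PHGDH, and still lay above all 3 control libraries. From 328 ± 11.6 to 597 ± 103 FPKM (SD, n = 3), PSAT1 rose 1.82-fold. The log2 fold change was 0.85 (SE 0.13, 95% interval 0.56 to 1.14, adjusted p = 0.0087 from limma), and without moderation of the variance the adjusted p was 0.059. GENCODE names 4 pseudogenes of PSAT1, none of them in the table, and how the authors' counting treated fragments shared with such copies is not stated.

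PSPH, the phosphatase that releases serine, was also above the controls in every library and did not pass the test. It lies on chromosome 7 from 56011051 to 56051604 on the minus strand. It measured 49.87, 49.71 and 52.53 FPKM in the control libraries and 54.90, 78.69 and 72.62 FPKM in the circCSPP1 libraries. Replicate 1 lay just above the controls and far below the other 2 libraries of its group. The means of 50.7 ± 1.58 and 68.7 ± 12.4 FPKM (SD, n = 3) gave a log2 fold change of 0.42 (SE 0.14, 95% interval 0.098 to 0.73, adjusted p = 0.093 from limma). Without circCSPP1 replicate 1 the log2 fold change was 0.57 (adjusted p = 0.0029), and with a correction for GC content and length the adjusted p was 0.036.

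The 2 serine hydroxymethyltransferases, SHMT1 in the cytosol and SHMT2 in the mitochondria, lay on opposite sides of the controls, and the test was passed by SHMT1. It lies on chromosome 17 from 18327860 to 18363563 on the minus strand. It measured 58.28, 54.19 and 58.73 FPKM in the control libraries and 41.23, 47.35 and 45.25 FPKM in the circCSPP1 libraries. All 3 circCSPP1 libraries were below all 3 controls. The means were 57.1 ± 2.50 and 44.6 ± 3.11 FPKM (SD, n = 3), 1.28-fold lower, with a log2 fold change of -0.35 (SE 0.089, 95% interval -0.56 to -0.14, adjusted p = 0.047 from limma). This call had the largest adjusted p of the 6 and was kept in 8 of 17 alternatives, with log2 fold changes from -0.39 to -0.30. The losses included TPM scaling (adjusted p = 0.058), median-ratio scaling (0.068), no moderation (0.067) and the fits without control replicate 1 (0.18), 2 (0.13) or 3 (0.17) or circCSPP1 replicate 2 (0.050) or 3 (0.13).

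SHMT2, the mitochondrial enzyme, was the most abundant of the 10 in the control cells. It lies on chromosome 12 from 57229327 to 57234935 on the plus strand. Its values were 395.42, 374.67 and 348.15 FPKM in the control libraries and 523.04, 415.45 and 416.28 FPKM in the circCSPP1 libraries. The lowest circCSPP1 library was close to the highest control, and replicate 1 was well above the other 2. The means of 373 ± 23.7 and 452 ± 61.9 FPKM (SD, n = 3) gave a log2 fold change of 0.27 (SE 0.11, 95% interval 0.019 to 0.52), which did not pass (adjusted p = 0.15 from limma). Without circCSPP1 replicate 1 the log2 fold change was 0.16, a fall of over 1.5 times (adjusted p = 0.098). The correction for GC content and length gave 0.28 (adjusted p = 0.027).

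MTHFD1L, the mitochondrial synthetase that releases formate, had the largest log2 fold change of the 10 with all 6 libraries, and among the genes that rose its circCSPP1 libraries had the smallest spread for their mean. It lies on chromosome 6 from 150865549 to 151101887 on the plus strand. It measured 22.16, 20.08 and 20.51 FPKM in the control libraries and 37.35, 41.43 and 40.77 FPKM in the circCSPP1 libraries. The lowest circCSPP1 library was far above the highest control. The means were 20.9 ± 1.10 and 39.9 ± 2.19 FPKM (SD, n = 3), a 1.91-fold increase that corresponded to 0.90 on the log2 scale (SE 0.092, 95% interval 0.68 to 1.11, adjusted p = 0.0029 from limma). It passed in all 17 alternatives, with log2 fold changes of 0.87 to 0.94; without circCSPP1 replicate 1 PSAT1 (0.99) was above it (0.94). Its cytosolic counterpart MTHFD1, which joins 3 folate reactions in 1 protein, lies on chromosome 14 from 64388031 to 64463457 on the plus strand. MTHFD1 measured 90.89, 84.84 and 96.15 FPKM in the control libraries and 85.18, 88.83 and 88.49 FPKM in the circCSPP1 libraries. The groups overlapped, with means of 90.6 ± 5.66 and 87.5 ± 2.02 FPKM (SD, n = 3), and the log2 fold change of -0.05 had a 95% interval of -0.24 to 0.14 (adjusted p = 0.74 from limma).

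MTHFD2, the mitochondrial dehydrogenase and cyclohydrolase that is low in most adult tissues and high in many tumours, lies on chromosome 2 from 74198562 to 74217565 on the plus strand. It measured 132.65, 128.98 and 127.02 FPKM in the control libraries and 182.91, 234.93 and 219.95 FPKM in the circCSPP1 libraries. The controls were within a few FPKM of each other, and replicate 1 was the lowest of the circCSPP1 libraries. MTHFD2 rose 1.64-fold, from 130 ± 2.86 to 213 ± 26.8 FPKM (SD, n = 3) and by 0.70 on the log2 scale (SE 0.10, 95% interval 0.46 to 0.94, adjusted p = 0.0082 from limma), and it passed in all 17 alternatives. GENCODE names 7 pseudogenes of MTHFD2, none in the table. Its exons share 1324 bases with those of SLC4A5 on the other strand, and SLC4A5 measured 1.23 to 1.83 FPKM in the control and 0.98 to 1.01 FPKM in the circCSPP1 libraries.

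MTHFD2L, the isozyme of MTHFD2, was the least abundant of the 10. It lies on chromosome 4 from 74114174 to 74303099 on the plus strand. Its values were 3.00, 3.29 and 2.68 FPKM in the control libraries and 3.34, 4.98 and 3.99 FPKM in the circCSPP1 libraries. The gap between the groups was narrow, and it came down to control replicate 2 and circCSPP1 replicate 1. The means of 2.99 ± 0.305 and 4.10 ± 0.826 FPKM (SD, n = 3) gave a log2 fold change of 0.35 (SE 0.15, 95% interval 0.0059 to 0.68), which did not pass (adjusted p = 0.17 from limma). Without circCSPP1 replicate 1 it was 0.46 (adjusted p = 0.037), without replicate 2 of that group it was 0.22 (adjusted p = 0.31), and the correction for GC content and length gave an adjusted p of 0.024.

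ALDH1L2, which oxidises mitochondrial formyl folate to carbon dioxide with the gain of NADPH, lies on chromosome 12 from 105019784 to 105084577 on the minus strand. It measured 4.89, 5.06 and 3.82 FPKM in the control libraries and 7.26, 9.45 and 8.39 FPKM in the circCSPP1 libraries. All 3 circCSPP1 libraries were above the controls. It rose 1.82-fold, from 4.59 ± 0.672 to 8.37 ± 1.10 FPKM (SD, n = 3), and the log2 fold change on the log2(FPKM + 1) scale, which understates the change of low genes, was 0.75 (SE 0.14, adjusted p = 0.019 from limma). The call was lost without moderation (adjusted p = 0.065), without any one control library (0.066 to 0.079) and without circCSPP1 replicate 3 (0.072). The protocol does not state whether the libraries kept the strand of the RNA, so fragments of ALDH1L2, MTHFD2, MTHFD2L, SHMT1, SHMT2 and MTHFD1 cannot be told from those of genes that overlap them on the other strand. Apart from SLC4A5, the overlaps with genes of the table were 33 to 196 bases long. PSPH, SHMT1 and MTHFD1 have 1 named pseudogene each.

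**Figure D2:**
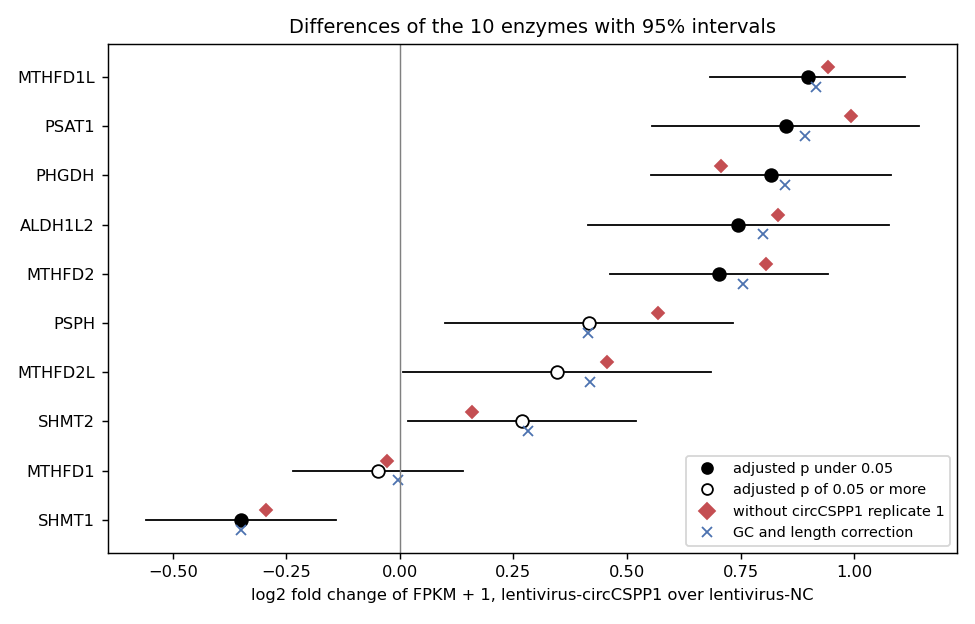
log2 fold change of FPKM + 1 (horizontal axis) of each enzyme, lentivirus-circCSPP1 over lentivirus-NC, with the 95% interval as a line; filled circles had an adjusted p under 0.05, red diamonds are the values without lentivirus-circCSPP1 replicate 1, and blue crosses those after a correction for GC content and length. The 5 genes at the top, from 0.70 to 0.90, stay well above 0 under both alternatives, and SHMT1 at -0.35 stays below it.

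The order of the levels was read within each group, since FPKM is scaled by transcript length. In the control cells it ran from SHMT2 through PSAT1, PHGDH, MTHFD2, MTHFD1, SHMT1, PSPH, MTHFD1L and ALDH1L2 to MTHFD2L, and no neighbours in this order overlapped in their values. With circCSPP1 PSAT1 and SHMT2 changed places, as did PSPH and SHMT1. In that group the ranges of PSAT1 (from 484.40 FPKM) and SHMT2 (up to 523.04 FPKM) overlapped, as did those of SHMT1 (from 41.23 FPKM) and MTHFD1L (up to 41.43 FPKM).

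The balance between mitochondrial and cytosolic enzymes was compared as a ratio within each library, which cancels the scaling of the library apart from the pseudocount of 1. SHMT2 was 6.78, 6.91 and 5.93 times SHMT1 in FPKM in the control libraries and 12.7, 8.77 and 9.20 times in the circCSPP1 libraries. The groups did not overlap, and the log2 ratio was higher by 0.62 (2.69 ± 0.12 against 3.30 ± 0.29, SD, n = 3). Without circCSPP1 replicate 1, which had the highest ratio, the difference was 0.45, the smallest of the 10 alternatives run on it. MTHFD1L stood to MTHFD1 as 0.244, 0.237 and 0.213 in the control libraries and as 0.438, 0.466 and 0.461 in the circCSPP1 libraries. Again the groups were apart, with a difference in the log2 ratio of 0.95. Both exact two-sided permutation tests gave p = 0.10 (0.13 adjusted over the 4 ratios compared), the smallest p the design allows.

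The other ratios compared enzymes within 1 compartment. MTHFD2 was 44.2, 39.2 and 47.4 times MTHFD2L in the control libraries and 54.8, 47.2 and 55.1 times in the circCSPP1 libraries. On the log2(FPKM + 1) scale the groups were apart by 0.36 (exact permutation test, p = 0.10, adjusted 0.13), while the plain ratios overlapped slightly, and with a pseudocount of 0.01 the difference was 0.27 (p = 0.20). PSAT1 was 1.84, 1.74 and 1.92 times PHGDH in the control libraries and 1.31, 2.35 and 2.12 times in the circCSPP1 libraries. Replicate 1 was below all controls and the other 2 above them, so the log2 difference of 0.03 was within the spread (exact permutation test, p = 1.0), and it turned negative without control replicate 2 (-0.0052) or circCSPP1 replicate 2 (-0.13) or 3 (-0.059).

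**Figure D3:**
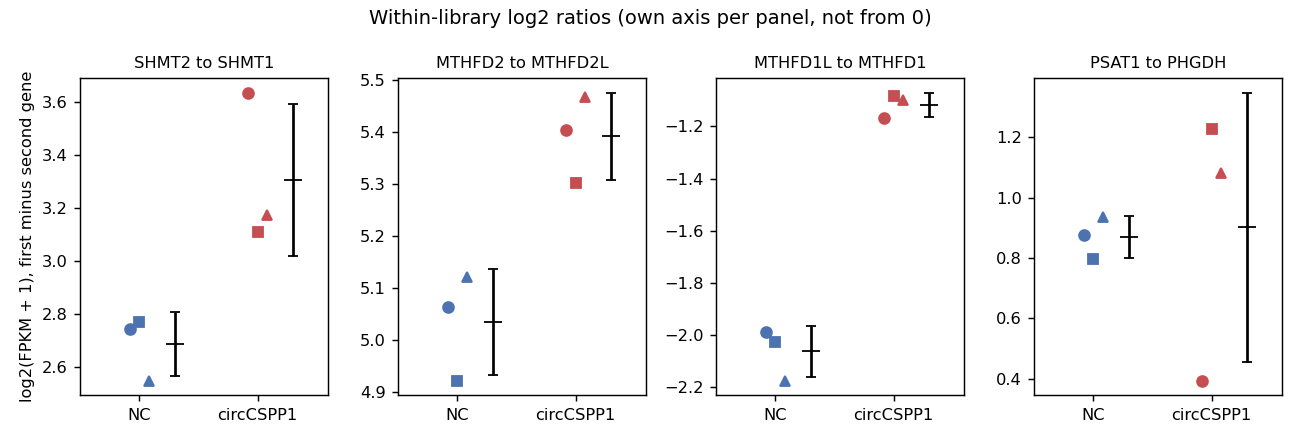
Within-library log2 ratios of 4 gene pairs, log2(FPKM + 1) of the first minus the second gene (vertical axes, which differ between panels and do not start at 0), in lentivirus-NC (blue) and lentivirus-circCSPP1 (red); circles, squares and triangles are replicates 1, 2 and 3, and black bars are the mean ± SD. The first 3 ratios are higher in every lentivirus-circCSPP1 library, by 0.62, 0.36 and 0.95 on average, while the PSAT1 to PHGDH ratio of replicate 1 (red circle) lies far below those of the other 2 red points.

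Lentivirus-circCSPP1 replicate 1 differed from replicates 2 and 3 along the GC content of the transcripts. On the log2 scale PHGDH (58.3% GC) and SHMT2 (55.2% GC) were each higher in replicate 1 by 0.33. PSAT1 (42.3% GC) departed by -0.43, PSPH (49.8%) by -0.45, MTHFD2L (37.0%) by -0.33, MTHFD2 (41.4%) by -0.31 and ALDH1L2 (42.1%) by -0.26. SHMT1, MTHFD1L and MTHFD1, at 47.6% to 51.9% GC, departed least, by -0.16, -0.13 and -0.06. Over the 10 genes Pearson's r was 0.761 and Spearman's rho 0.685, and over the 12305 tested genes with a transcript rho was 0.784, as a description of 1 library against the other 2. The direction of the 9 genes without overlap was the same in the fit without this library and in the fit corrected for GC content and length.

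**Figure D4:**
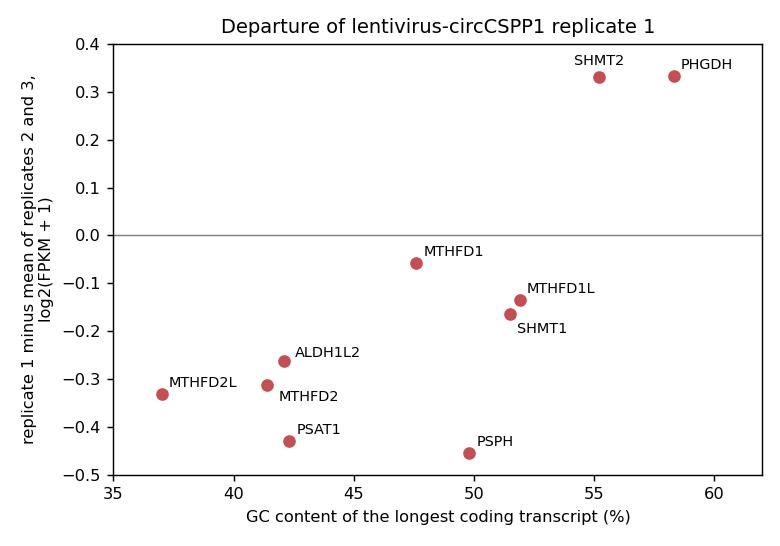
Departure of lentivirus-circCSPP1 replicate 1 from the mean of replicates 2 and 3, on the log2(FPKM + 1) scale (vertical axis), against the GC content of the longest coding transcript in percent (horizontal axis), for the 10 enzymes. PHGDH and SHMT2, with the highest GC content, are the 2 points above 0, and PSPH (-0.45) and PSAT1 (-0.43) are the lowest.

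The genes around the pathway were split in direction. Of 63 other genes tested in 8 lists, 4 were higher and 5 lower with circCSPP1 at an adjusted p under 0.05 (limma), which is 14.3% against 11.4% of all tested genes, and their median log2 fold change was -0.07. In the list of serine transport, which includes a glycine transporter, 3 of 8 tested genes were called higher and 0 lower, with a median of 0.31. Over all tested genes 4.69% were called higher. SLC1A4, which carries serine and other small neutral amino acids, measured 13.33, 11.79 and 11.26 FPKM in the control libraries and 31.82, 28.11 and 31.22 FPKM in the circCSPP1 libraries. With a log2 fold change of 1.26 (SE 0.11, adjusted p = 0.0015 from limma) it rose by more than any of the 10 enzymes. SLC1A5, a carrier of glutamine and serine, rose by 0.72 (SE 0.10, adjusted p = 0.0071), and SLC6A9, a glycine transporter, by 0.67 (SE 0.13, adjusted p = 0.018).

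Among genes that use serine, 1 of 8 tested genes was called higher and 0 lower, with a median of -0.08, again beside 4.69% of all tested genes. This gene was CBS, which joins serine to homocysteine on the way to cysteine, and it rose from 77.6 ± 4.71 to 161 ± 31.4 FPKM (SD, n = 3) and by 1.03 on the log2 scale (SE 0.14, adjusted p = 0.0061 from limma). The value is uncertain because the table also lists CBSL, a near-identical copy that could take part of its fragments, with 34.0 ± 1.08 and 69.9 ± 13.5 FPKM (SD, n = 3).

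Of 8 tested genes of glycolysis around 3-phosphoglycerate 3 were called lower and 0 higher, with a median of -0.21. Over all tested genes 6.66% were called lower. PGK1, which makes 3-phosphoglycerate, measured 123.95, 132.11 and 123.39 FPKM in the control libraries and 92.54, 91.99 and 94.50 FPKM in the circCSPP1 libraries. Its replicates were close, the groups lay well apart, and the log2 fold change was -0.44 (SE 0.072, adjusted p = 0.011 from limma). PGAM1, which draws 3-phosphoglycerate on towards pyruvate, changed by -0.31 (SE 0.063, adjusted p = 0.023) and ENO2, an enolase, by -0.69 (SE 0.14, adjusted p = 0.021). In the glycine cleavage system 1 of 5 tested genes was called lower. It was GLDC, the glycine decarboxylase, with a log2 fold change of -0.40 (SE 0.092, adjusted p = 0.034 from limma). In purine and thymidylate synthesis, where the one-carbon units are used, 1 of 15 tested genes was called lower. This share of 6.67% was close to the 6.66% over all tested genes. The gene was TYMS, the thymidylate synthase, with a log2 fold change of -0.41 (SE 0.081, adjusted p = 0.020 from limma). None of the 10 tested genes among the other folate enzymes (median -0.15), of the 3 in folate uptake (median 0.097) or of the 7 in the methionine cycle (median -0.10) passed in either direction. The calls of SLC1A4, SLC1A5 and CBS were kept in all 17 alternatives and those of the other 6 in 10 to 13, so that the count of 9 fell to 3 without control replicate 1 or 2 or circCSPP1 replicate 3 and to 4 without control replicate 3. Over all tested genes 2.43%, 2.57%, 3.65% and 3.30% were called in these fits, in that order. It rose to 21 without circCSPP1 replicate 1, where 28.5% of all tested genes were called.

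**Figure D5:**
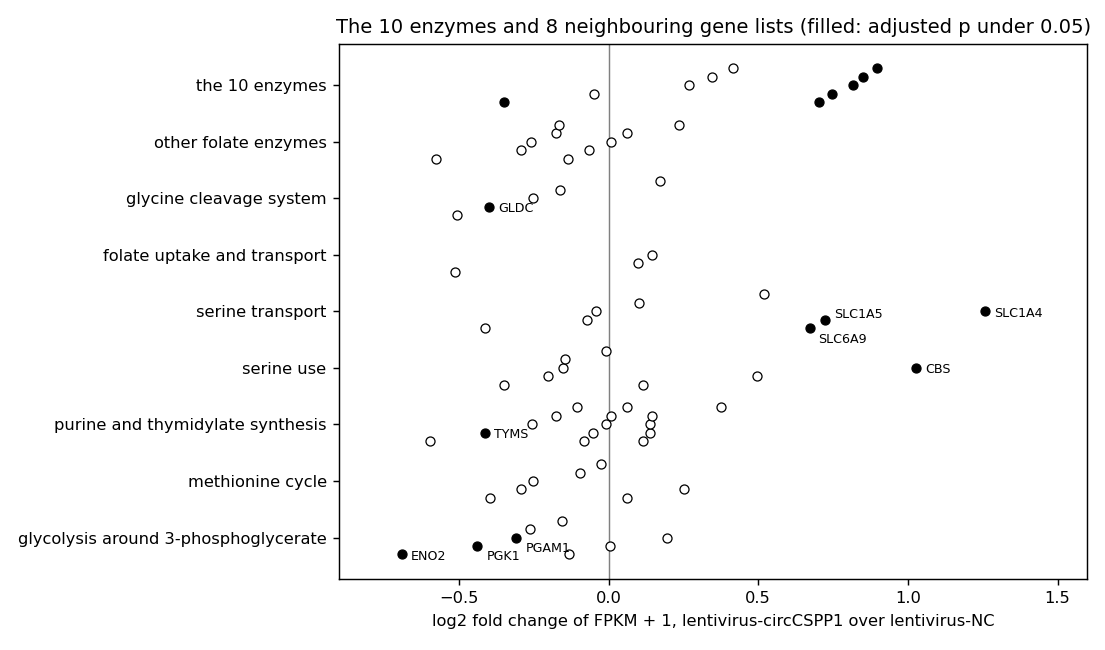
log2 fold change of FPKM + 1 (horizontal axis), lentivirus-circCSPP1 over lentivirus-NC, of the 10 enzymes (top row) and of the tested genes of 8 neighbouring lists (1 circle per gene, spread vertically within a row to avoid overlap; filled circles had an adjusted p under 0.05). The top row has 5 filled circles between 0.70 and 0.90 and SHMT1 at -0.35. Among the lists SLC1A4, SLC1A5, SLC6A9 and CBS are the filled circles on the right, and those of glycolysis, TYMS and GLDC lie on the left.

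ATF4, the transcription factor named above, measured 300.50, 301.53 and 285.74 FPKM in the control libraries and 391.72, 380.39 and 396.20 FPKM in the circCSPP1 libraries. The groups were far apart, and the log2 fold change was 0.40 (SE 0.064, adjusted p = 0.011 from limma), kept in 13 of 17 alternatives. CSPP1, the host gene of the overexpressed circular RNA, had 9.54 ± 0.493 and 19.5 ± 4.44 FPKM (SD, n = 3). Its value is only a limited check of the labels, since FPKM per gene does not separate the linear from the circular form. The libraries were made from polyadenylated RNA, and by qRT-PCR the authors reported that the vector raised circCSPP1 and not the linear CSPP1 mRNA. Which form the higher value came from was not tested.

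The tested genes whose profile over the 6 libraries came closest to that of an enzyme were found by the Euclidean distance of centred log2(FPKM + 1) values, among 12321 genes. For PHGDH these were GTPBP2 (distance 0.105), N4BP3 (0.116) and GLIS2 (0.122). For PSAT1 they were NR1D2 (0.0845), AMIGO2 (0.103) and TXNL4B (0.154), and for SHMT2 ELL (0.0734), HINT2 (0.0756) and ZFYVE27 (0.0902). For MTHFD2 they were GPAT3 (0.0467), MXD1 (0.0915) and GARS (0.12), the glycyl-tRNA synthetase. GTPBP2 had its highest value in circCSPP1 replicate 1 (187.24 FPKM, against 136.84 and 151.12 FPKM in replicates 2 and 3), as PHGDH did. GPAT3 had its lowest circCSPP1 value there (20.27 FPKM, against 25.51 and 24.44 FPKM), as MTHFD2 did, so the departure of replicate 1 is part of these distances.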

How the data were processed

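The RNA-seq of DU145 comprised 6 libraries, grouped by their labels into 3 of lentivirus-NC and 3 of lentivirus-circCSPP1. The authors sequenced polyadenylated RNA from both ends of the fragments and deposited FPKM values rounded to 2 decimals. The build is hg38 per the submitters' processing notes, and the aligner, the counting program and the annotation are not given in the sources used here. A count model was not fitted, since FPKM is already scaled, and a gene's FPKM shifts with the share of the library that other genes hold. The 20 highest genes held 14.9% to 15.2% of the summed FPKM in lentivirus-NC and 12.0% to 12.1% in lentivirus-circCSPP1. Library sums were 589142 to 603390. All columns of per-sample values were used.

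After the transformation log2(FPKM + 1), limma 3.58.1 (R 4.3.3) was run on the 12322 genes averaging 1 FPKM or more, all 10 enzymes among them (linear model, moderated variance, trend in the variance, two-sided, without covariates), and p-values were adjusted over these genes by the Benjamini-Hochberg method at a threshold of 0.05. On simulated data for 12260 genes of this comparison, 80% of 100 genes shifted by 1 and 98% of 100 shifted by 2 on the log2 scale were recovered, and 0.0912% of 12060 unchanged genes were called. The simulated noise was independent between genes and libraries, without a departure along GC content like that of lentivirus-circCSPP1 replicate 1. The shifts were larger than the log2 fold change of any of the 10 enzymes, and genes of low level were not shifted. Ratios of gene pairs were compared with exact permutation tests. Depth was computed from low FPKM values of genes with 1 transcript under 800 nt, as the spacing at which FPKM times length came within 0.15 of a whole multiple, which 93.2% to 98.3% of the 53 to 70 values per library did. Errors computed from it cover counting only. Positions, transcript lengths and GC content came from GENCODE release 29 (GRCh38), and promoters from RefSeq on GRCh38.p14.

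The members and the gene lists were chosen with earlier results of these data known. The rule for names took the 10 enzymes, up to 4 called genes per list, ATF4, CSPP1 and the 3 nearest profiles of PHGDH, PSAT1, SHMT2 and MTHFD2. Marker genes, overlapping genes and CBSL were named as checks, and the summed level of the luminal prostate markers is not reported here. The alternatives were pseudocounts of 0.1 and 0.01, either no filter or one at a mean of 5 FPKM, TPM, median-ratio and quantile scaling, no moderation, robust moderation, a replicate block, a loess correction (span 0.5) for GC content and length, and leaving out each library. Figures were drawn with matplotlib 3.10.9.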

Additional observations from a re-analysis of the deposited data

How the results depend on the processing

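Of the 10 enzymes, PHGDH, MTHFD1L and MTHFD2 kept their calls in all 17 alternatives, PSAT1 in 16, ALDH1L2 in 12 and SHMT1 in 8, and no log2 fold change of the 10 changed sign. The count of 6 called enzymes was 3 without moderation of the variance, when PSAT1, ALDH1L2 and SHMT1 lost their calls and 6.77% of all tested genes were called. It was 9 with the correction for GC content and length, when 28.5% of all tested genes were called. Leaving out 1 library gave 4 to 8 enzymes: 4 without any one control (lentivirus-NC) library or lentivirus-circCSPP1 replicate 3, 5 without replicate 2 and 8 without replicate 1 of that group. Over all tested genes 2.43% to 3.65% were called in the fits with 4 enzymes, 9.41% without lentivirus-circCSPP1 replicate 2 and 28.5% without replicate 1, against 11.4% with all libraries. These fits have fewer samples, and no other cause was tested. The count of 9 other pathway genes was 20 (9 higher and 11 lower) with the correction for GC content and length, and 3 to 21 when 1 library was left out. The cause was not tested. The PSAT1 to PHGDH log2 ratio, which did not differ beyond the spread, lay between -0.13 and 0.29 when 1 library was left out, and it was -0.0052 without lentivirus-NC replicate 2, -0.13 without lentivirus-circCSPP1 replicate 2 and -0.059 without replicate 3. The other 3 ratios kept their direction in all 10 alternatives run on them. With no filter on low values the pathway count was 10, when 8.2% of all tested genes were called. With a mean of at least 5 FPKM MTHFD2L was not tested. With the counting errors given above, the depth limits MTHFD2L most.

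The series description calls the samples paired, without saying that a replicate number marks a shared culture or day. Same-numbered libraries of the groups deviated together with correlations of 0.073, 0.0065 and 0.057 over the tested genes, all under 0.1, so the numbers were not taken to pair the samples. The libraries numbered 1 and 3 correlated best with their own number, and those numbered 2 did not. With the replicate block, 923 genes were called in place of 1399, 5 enzymes in place of 6 (SHMT1 had an adjusted p of 0.11 from limma) and 7 other pathway genes in place of 9 (GLDC had 0.083 and PGAM1 0.076). The paired sign-flip test of the ratios cannot go below p = 0.25 with 3 pairs, and gave 0.25 for SHMT2 to SHMT1, MTHFD2 to MTHFD2L and MTHFD1L to MTHFD1 and 1.0 for PSAT1 to PHGDH (exact tests).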
